A study of Homo sapiens with 10 samples.

Results

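The genes described here are 7 members of the plasminogen activation system, taken by symbol: the activators PLAU and PLAT, the receptors PLAUR and ANXA2, and the serpins SERPINE2, SERPINB2 and SERPINB7. All 7 were found in both the count table and the table of transcript abundance scaled for length and depth (TPM), which hold 36687 gene symbols. Of the 7, 6 passed the filter on low counts, which left 15727 genes to be tested, and SERPINB2 did not. RNA sequencing was performed in MDA-MB-231, an established human breast cancer line that is triple-negative and classed as basal B, without drug (0 h, titled Sham) and after 6, 12, 24 and 48 h of dasatinib, an inhibitor of SRC-family and ABL kinases. Each of the 5 groups had 2 biological replicates. All groups were this single line, so the replicates do not sample different tumors. The submitters' treatment field names dasatinib for the 0 h samples too, and they were used as untreated controls by their title and time. No untreated cells were collected at the later times, so drug exposure and time in culture cannot be told apart.

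Plasminogen is a circulating zymogen that urokinase (PLAU) and tissue-type plasminogen activator (PLAT) cleave to plasmin, a broad protease that degrades fibrin and matrix proteins and activates other proteases. The urokinase receptor (PLAUR) holds urokinase at the cell surface, and annexin A2 (ANXA2), in a complex with S100A10, binds plasminogen and tissue-type activator there. Serpins inhibit the activators: SERPINE2 (protease nexin-1) acts on thrombin, urokinase and plasmin, SERPINB2 (PAI-2) acts on urokinase, and SERPINB7 is a mainly epidermal clade B serpin. The system is known for its part in invasion, and MDA-MB-231 cells are known as urokinase producers.

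The start-site regions of the members are shown as description only. RefSeq promoter windows (GRCh38.p14, the 250 bases before each annotated start) were given for 6 of the 7 genes, 10 windows in all. They were searched on both strands. No window was given for PLAT, so its start was not searched. The AP-1 letters TGANTCA lay in 5 of the 10 windows, belonging to 4 of the 6 genes, and in 6.57% of all 35116 windows of that length. Windows of the same gene are not independent, and SERPINB7 alone had 3 of the 10. All 250 bases of the PLAUR window and of each PLAU window lay in annotated exons. Of the other windows printed from below, that of ANXA2 had 134 exon bases and that of SERPINB7 had 43. The SERPINB7 letters shown lay among those 43. The SERPINE2 and SERPINB2 windows printed from had 0 exon bases. Enrichment was not tested. The Sp1 letters GGGCGG lay in 4 of the 10 windows (42.6% of all windows) and the ETS letters CAGGAA or CCGGAA in 3 (35.7%). With 10 windows from 6 genes, none of the letters searched is read as more or less frequent than in all windows. The TATA letters TATAAA lay in 3 of the 10 (10.7%) and the TEAD letters GGAATG in none (11.9%). The ETS and TEAD letters share GGAA, so their matches can overlap. Stretches of 30 bases around a match follow, with the match in capitals.
PLAUR, AP-1, chr19:43670337-43670366, minus strand: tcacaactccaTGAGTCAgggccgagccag
ANXA2, AP-1, chr15:60398095-60398124, minus strand: gcgggccggggTGAGTCAcccctgacttgg
SERPINB2, AP-1, chr18:63887592-63887621, plus strand: gagtaaaatgtTGAATCActcaaaggacac
SERPINB7, AP-1, chr18:63775368-63775397, plus strand: gtgctgtgctcTGAGTCAtagggaagccat
PLAU, Sp1, chr10:73911080-73911109, plus strand: gGGGCGGcgccgGGGCGGgccctgatatag
SERPINE2, Sp1, chr2:224031511-224031540, minus strand: accaatggctgtGGGCGGaggagggaggtt
A match describes these letters only and is no evidence of binding. Among the 4 genes with the AP-1 letters, both 48 h libraries of PLAUR lay above the 0 h pair and those of ANXA2 below it. Neither passed the edgeR test at 48 h with all libraries (adjusted p = 0.0909 and 0.247). SERPINB7 went from 34 and 20 counts at 0 h to 0 at 48 h, and SERPINB2 from 2 and 7. Whether the letters bear on these levels was not tested.

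Total counts were 40942913 to 49133774 per library. The library of 12 h replicate 1 stood apart: its highest correlation with any other library was 0.955, against 0.983 to 0.987 for the others. Mitochondrial mRNA took 7.94% of its counts against 5.42% in 12 h replicate 2, and ribosomal protein mRNA took 4.21% against 7.11%. The 48 h libraries moved the same way from 0 h, with mitochondrial shares of 7.24% and 6.73% against 5.72% and 5.07%, and ribosomal protein shares of 5.38% and 5.20% against 6.62% and 6.63%. The part of these shares in the 48 h results was not tested. Every count of changed members is therefore given with all 10 libraries and without this one, where 16555 genes were tested and 12 h was a single sample assumed to vary like the other groups. The markers of the line were high in every library (VIM at 633 to 913 TPM, CD44 at 87.1 to 162 TPM), whereas ESR1 and CDH1 reached at most 0.144 and 0.133 TPM and PGR was at 0. The luminal genes FOXA1, GATA3 and EPCAM were not near 0 (FOXA1 at 8.63 to 14.1 TPM). The T-cell marker CD3E was at 0. The summed TPM of the 3 endothelial markers was 0.567 to 1.11 at 0 h and 3.43 to 4.07 at 48 h, mostly from PECAM1, and its part in the results was not tested. In bulk RNA, fewer cells of a type and less RNA per cell cannot be told apart.

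The members differed widely in level. In TPM, which allows comparison between genes, ANXA2 ranked first of the 7 in all 10 libraries, followed by PLAU and then PLAUR. ANXA2 lay at 743 to 1376 TPM, PLAU at 113 to 256, PLAUR at 54.5 to 160, PLAT at 11.2 to 50.8 and SERPINE2 at 11.2 to 18.3. PLAT lay above SERPINE2 in 7 libraries and below it in 6 h replicate 1 and both 12 h libraries, so this pair was not separated at 6 h. SERPINB7 and SERPINB2 were near the limit of detection. Plasminogen itself (PLG) was at 0 counts in all 10 libraries.

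**Figure D1:**
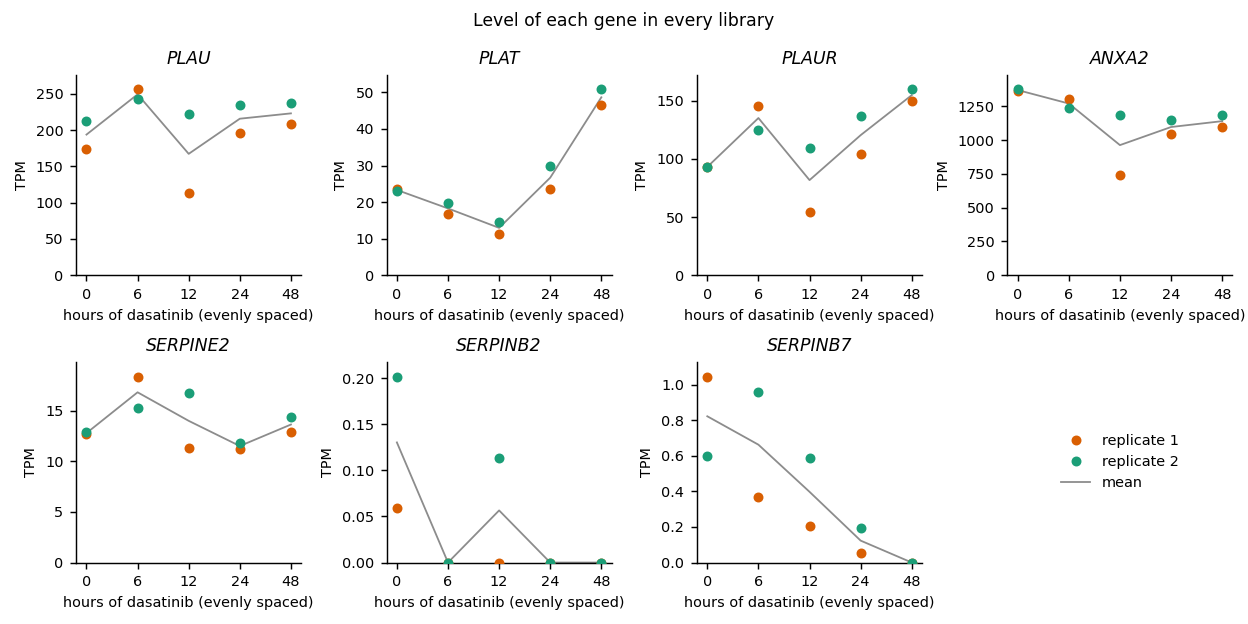
Level in TPM (vertical axis, from 0, scaled to each gene) of the 7 genes against hours of dasatinib; points are the 2 libraries of each time and the line joins their means. PLAT dips at 12 h and is highest at 48 h, the 12 h replicate 1 library lies below its partner for all genes with reads there, and SERPINB7 falls to 0 at 48 h.

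PLAT fell by 12 h and then rose to 1.98-fold its starting level by 48 h, the clearest change among the members. Its level in CPM (counts scaled to library size) was 49.2 and 47.5 before drug, 34.3 and 42.1 after 6 h, 20.9 and 29.4 after 12 h, 47.1 and 56.6 after 24 h and 93.5 and 98.2 after 48 h. Both 12 h libraries lay below and both 48 h libraries above the 0 h pair, while the 24 h pair overlapped it. The edgeR log2 fold change against 0 h was -0.94 at 12 h (SE 0.176, adjusted p = 0.0130) and 0.99 at 48 h (SE 0.174, adjusted p = 0.00177), which is 1.92-fold lower and 1.98-fold higher. The 6 h value was -0.34 (adjusted p = 0.392) and the 24 h value 0.10 (adjusted p = 0.746). The direct tests between times gave a log2 difference of 1.05 from 12 to 24 h (adjusted p = 0.00780), 0.89 from 24 to 48 h (adjusted p = 0.0246) and 1.33 from 6 to 48 h (adjusted p = 0.000317).

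The 12 h fall of PLAT rested on each control: without 0 h replicate 1 it was -0.93 (adjusted p = 0.108) and without 0 h replicate 2 it was -0.98 (adjusted p = 0.0814). Leaving out 12 h replicate 1 gave -0.71 (adjusted p = 0.000221). The difference from 12 to 24 h was 0.90 (adjusted p = 0.108) without 24 h replicate 2. That from 24 to 48 h had adjusted p-values of 0.0603 to 0.301 when a library of 0, 24 or 48 h was left out. The rise at 48 h passed the threshold whichever library was left out (adjusted p at most 0.0249). PLAT lies at chr8:42174718-42207709 on the minus strand (GENCODE v44 annotation of GRCh38, as for the other positions given for whole genes).

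PLAU, the more abundant activator, changed less than its own 12 h replicates differed. Its CPM was 152 and 182 before drug, 217 and 216 after 6 h, 87.1 and 185 after 12 h, 163 and 186 after 24 h and 174 and 191 after 48 h. The 6 h pair lay above the 0 h pair and all other times overlapped it. The log2 fold change at 6 h was 0.37 (SE 0.268, adjusted p = 0.572) with all libraries and 0.38 (SE 0.0843, adjusted p = 0.00186) without 12 h replicate 1. At 48 h it was 0.13 (adjusted p = 0.754). PLAU lies at chr10:73909177-73917496, plus strand, and overlaps the antisense gene C10orf55, which had 16 to 45 counts per library.

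The makeup of activator mRNA moved with PLAT. Before drug, 11.9% and 9.79% of summed PLAU and PLAT TPM was PLAT. The share was 6.18% and 7.51% after 6 h, 9.07% and 6.20% after 12 h, 10.7% and 11.2% after 24 h and 18.2% and 17.6% after 48 h. The 48 h libraries held the largest shares, and the 6 and 12 h pairs lay below the pair before drug. Urokinase mRNA was the larger share throughout, at 4.48 to 15.2 times PLAT in TPM.

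PLAUR lay above its 0 h level at 6, 24 and 48 h in every library of those times, but no time passed the test with all libraries. Its CPM was 123 and 120 before drug, 186 and 167 after 6 h, 63.7 and 137 after 12 h, 131 and 163 after 24 h and 190 and 194 after 48 h. The 12 h libraries lay on either side of the 0 h pair. With all libraries the log2 fold change was 0.54 at 6 h (adjusted p = 0.382), 0.28 at 24 h (adjusted p = 0.537) and 0.66 at 48 h (SE 0.273, adjusted p = 0.0909). In the fit that left out 12 h replicate 1, PLAUR rose at 6 h by 0.55 (SE 0.0853, adjusted p = 3.03e-05), at 24 h by 0.28 (adjusted p = 0.0103) and at 48 h by 0.66 (adjusted p = 2.39e-07). Leaving out 12 h replicate 2 instead gave an adjusted p of 1.69e-07 at 48 h, and DESeq2 on all libraries gave 0.0354. The ratio of PLAUR to PLAU in TPM went from 0.534 and 0.436 before drug to 0.719 and 0.672 after 48 h. PLAUR lies at chr19:43646095-43670547, minus strand.

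ANXA2 was lower than both 0 h libraries at every later time. Its CPM was 3549 and 3520 before drug, 3306 and 3290 after 6 h, 1716 and 2948 after 12 h, 2590 and 2724 after 24 h and 2750 and 2842 after 48 h. With all libraries no time passed the test (log2 fold change -0.60 at 12 h, adjusted p = 0.115, and -0.34 at 48 h, adjusted p = 0.247). In the fit without 12 h replicate 1, ANXA2 fell at 24 h (-0.41, SE 0.0742, adjusted p = 5.18e-05) and at 48 h (-0.34, adjusted p = 0.000347). ANXA2 lies at chr15:60347134-60402883, minus strand, and has processed pseudogenes that may share its reads.

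The partner of ANXA2, S100A10, did not pass the test at any time with all libraries (log2 fold change 0.17 at 48 h, adjusted p = 0.786). In the fit lacking 12 h replicate 1, S100A10 was higher at 6 h (0.40, adjusted p = 0.00145). The ratio of ANXA2 to S100A10 in TPM was 1.25 and 1.17 before drug, 0.840 and 0.878 after 6 h, 1.10 and 0.911 after 24 h and 0.860 and 0.840 after 48 h. It was 1.93 in 12 h replicate 1 and 0.979 in 12 h replicate 2.

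**Figure D2:**
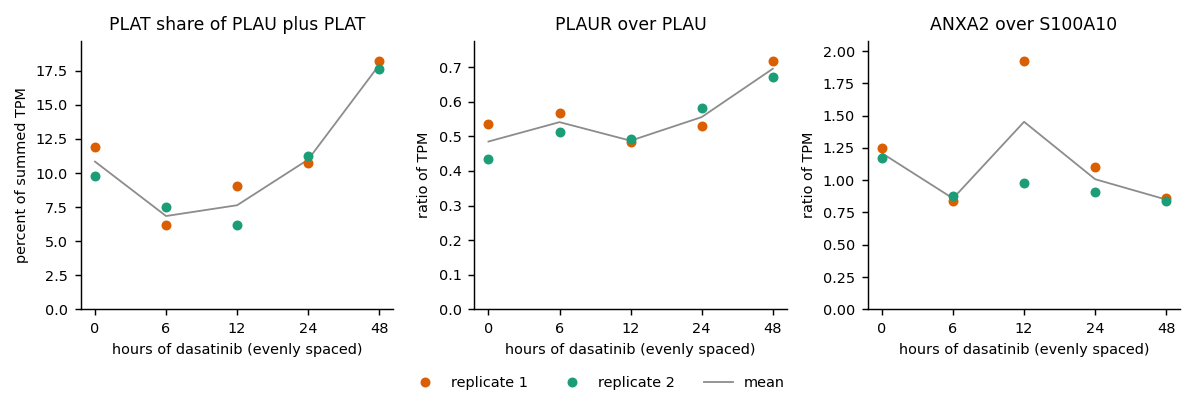
Ratios of TPM in every library against hours of dasatinib: the percent of summed PLAU and PLAT TPM that is PLAT, PLAUR over PLAU, and ANXA2 over S100A10, with points for the 2 libraries and a line through their means. The PLAT share is highest at 48 h (18.2% and 17.6%), and 12 h replicate 1 stands alone in ANXA2 over S100A10 (1.93).

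SERPINE2 was transiently higher by level and returned to its start. Its CPM was 33.5 and 33.5 before drug, 47.2 and 41.3 after 6 h, 26.5 and 42.3 after 12 h, 28.3 and 28.4 after 24 h and 32.8 and 35.0 after 48 h. The 6 h pair lay above the 0 h pair and the 24 h pair below it. The log2 fold change at 6 h was 0.40 (adjusted p = 0.351) with all libraries and 0.41 (SE 0.0982, adjusted p = 0.00373) in the fit lacking 12 h replicate 1. By 48 h the log2 difference of SERPINE2 from its start was 0.02 (adjusted p = 0.956). SERPINE2 lies at chr2:223975045-224039318, minus strand.

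SERPINB7 was scarce and was no longer counted at 48 h. Its counts were 34 and 20 before drug, 12 and 34 after 6 h, 6 and 20 after 12 h, 2 and 6 after 24 h and 0 and 0 after 48 h. From 12 h on, no library exceeded the lower 0 h library in CPM, and at 6 h the pairs overlapped. The pooled 0 h level of SERPINB7 was 19.6 times a floor of 3 counts over the 48 h group. That floor takes counts as independent, and the error at 0 h is left out, so the ratio is no lower bound. The edgeR test gave an adjusted p of 0.00796 at 48 h, and 0.0549 or 0.0512 when one of the 48 h libraries was left out. Its fitted fold change depends on the prior count and is not read as a size.

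SERPINB2 had 2 and 7 counts before drug, 0 and 4 after 12 h and none in the 6 libraries of the other times. A count of 0 allows up to 0.0597 to 0.0716 CPM, depending on the library (counting error only, counts taken as independent). SERPINB2 did not pass the filter for the main test, and no test of it against 0 h is given here. With no filter, the edgeR test between 6 and 12 h gave an adjusted p of 0.680. That test does not bear on its change from 0 h. SERPINB7 and SERPINB2 are neighbours (chr18:63752935-63805376 and chr18:63871692-63903888, both plus strand, 66.3 kb apart).

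**Figure D3:**
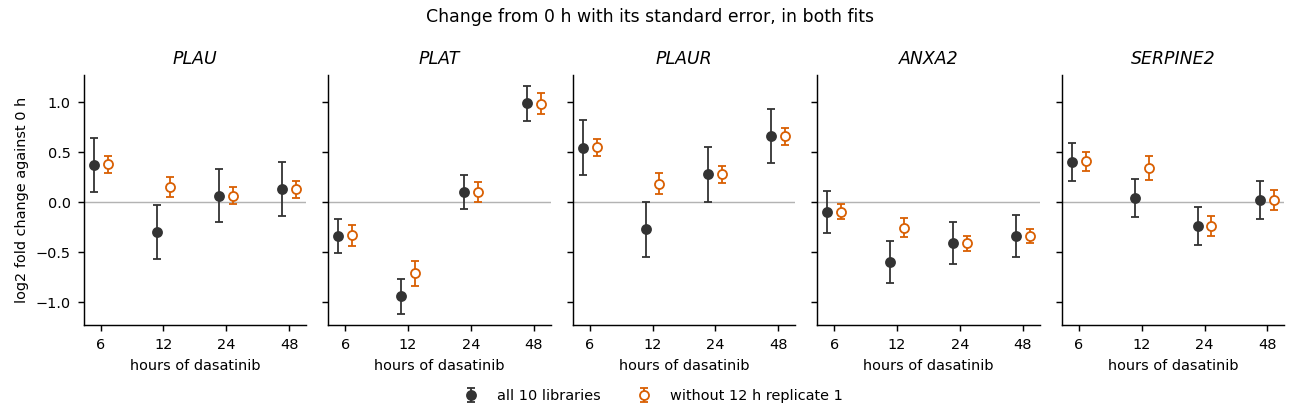
Log2 fold change against 0 h (vertical axis) at 6, 12, 24 and 48 h for 5 members, with bars of 1 standard error; filled points use all 10 libraries and open points leave out 12 h replicate 1. SERPINB7 is left out for its size, PLAT reaches 0.99 at 48 h in both fits, and the open points have shorter bars.

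Counted over the 6 members tested, calls were few and are read against the share of all genes called. With all libraries no member was higher or lower at 6 h, where 1.24% of genes were higher and 1.49% lower. At 12 h none was higher (3.93% of genes) and 1 was lower, PLAT (3.22%). At 24 h none was higher (9.73%) or lower (10.2%). At 48 h 1 was higher, PLAT (16% of genes), and 1 lower, SERPINB7 (16.3%). With 6 members, a single call at 48 h is near these shares.

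Without 12 h replicate 1 the counts were larger, and so was the background. At 6 h 3 members were higher, PLAU, PLAUR and SERPINE2 (9.89% of genes), and 1 lower, PLAT (9.47%). At 12 h 1 was higher, SERPINE2 (8.26%), and 1 lower, PLAT (8.61%). At 24 h 1 was higher, PLAUR (19.5%), and 2 lower, ANXA2 and SERPINB7 (20.8%). At 48 h 2 were higher, PLAT and PLAUR (24.5%), and 2 lower, ANXA2 and SERPINB7 (26%). Leaving out 12 h replicate 2 instead gave the same members at 6, 24 and 48 h, but 5 lower members at 12 h. With either of them left out, the 12 h group adds nothing to the estimate of the spread. All comparisons with 0 h share the same 2 control libraries.

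Between times, with all libraries, no member differed between 6 and 12 h (0.725% of genes). PLAT alone differed between 12 and 24 h (7.58%) and between 24 and 48 h (3.18%), and PLAT and SERPINB7 between 6 and 48 h (33.2%). Once 12 h replicate 1 was dropped, 1 member differed between 6 and 12 h, PLAUR (5.4% of genes), and 2 between 12 and 24 h, PLAT and SERPINE2 (17.3%). Between 24 and 48 h these were PLAT and PLAUR (21.4%), and between 6 and 48 h there were 5, PLAT, PLAU, ANXA2, SERPINE2 and SERPINB7 (50.5%).

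For the 5 members above 10 TPM, the 12 h replicates differed more than the replicates of any other time. Replicate 1 minus replicate 2 was -1.08 for PLAU, -1.11 for PLAUR, -0.78 for ANXA2, -0.67 for SERPINE2 and -0.49 for PLAT on the log2 CPM scale. The median over all genes tested was -0.03, and 12.1% of genes were as low as PLAU or lower. S100A10 differed by -1.76.

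Of 30 other serpins considered, 15 had no count in any library and 11 were tested. None was called at 6 or 12 h, and 4 were higher at 24 h (9.73% of all genes) and 5 at 48 h (16%). At 24 and 48 h none was lower (10.2% and 16.3% of all genes). No balance of activators and inhibitors is drawn from these genes. Their median log2 fold change at 48 h was 1.07, against 0.01 over all genes tested. Those higher at 48 h were the elastase inhibitor SERPINA1 (22 and 24 counts before drug, 160 and 126 after 48 h), the neutrophil protease inhibitor SERPINB1 (log2 fold change 0.92), the tissue-type activator inhibitor SERPINI1 (neuroserpin, 1.07), SERPING1 (C1 inhibitor, 2.91) and SERPIND1 (heparin cofactor). SERPING1 had 16 and 2 counts before drug and 78 and 72 after 48 h, so its size depends on the control used. SERPIND1 had 0 and 2 counts before drug and 130 and 94 after 48 h, and no fold is given. SERPINI1 and SERPING1 are counted in the plasminogen-system list as well. SERPINA1, SERPING1 and SERPIND1 were scarce, with at most 160 counts in a library. Shares of all genes called were larger in the fit without 12 h replicate 1, as given above. Without 12 h replicate 1, 12 were tested, of which 2 were higher after 6 h, 2 after 12 h, 7 after 24 h and 7 after 48 h, when 1 was lower.

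Of 34 other genes of the plasminogen system, 29 were tested: none was called at 6 h, 2 were higher at 12 h, 8 at 24 h, and 13 at 48 h, when 1 was lower. With all libraries, the shares of all genes that were higher at these times were those given above, from 1.24% at 6 h to 16% at 48 h. The shares that were lower went from 1.49% at 6 h to 16.3% at 48 h. The shares in the fit without 12 h replicate 1 were larger at each time and are also given above. Their median log2 fold change was 0.21, 0.09, 0.76 and 1.00 at the 4 times. Leaving out 12 h replicate 1, 30 were tested, of which 7 were higher by 6 h, 6 by 12 h, 15 by 24 h and 18 by 48 h, with 0, 0, 1 and 2 lower. LRP1 and VLDLR are endocytic receptors that clear activators bound to serpins. LRP1 went from 22.6 and 21.8 CPM before drug to 128 and 112 CPM after 48 h (log2 fold change 2.43, SE 0.168, adjusted p = 8.74e-06), and VLDLR rose by 1.59 on the log2 scale.

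With all libraries LRP1 was already higher at 12 h by the edgeR test (0.97, adjusted p = 0.00762). So was the collagen receptor MRC2 (0.51, adjusted p = 0.0382), a partner of the urokinase receptor. LRP1 was at 51.0 CPM in 12 h replicate 1 and 36.0 CPM in replicate 2. Without 12 h replicate 1 the log2 fold changes at 12 h were 0.70 for LRP1 and 0.58 for MRC2. Of the integrin subunits named by smallest adjusted p, ITGB3 went from 5.08 and 4.27 CPM before drug to 36.8 and 38.2 CPM after 48 h (SE of the log2 fold change 0.194, adjusted p = 7.40e-06). The log2 fold change at 48 h was 1.18 for ITGB5, 0.55 for ITGA5 and 0.50 for ITGB1. The protease CTSB rose by 0.66 and IGF2R by 1.00. The lower gene was the coagulation factor F12 (-0.85, adjusted p = 0.0141), named after its value was seen.

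Among the other annexins, 10 of 12 were tested. ANXA1, a glucocorticoid-regulated annexin, fell at all 4 times, by 0.56 on the log2 scale at 6 h (adjusted p = 0.0261) and by 0.70 at 48 h. ANXA3 was lower from 12 h on (-0.77 at 48 h), whereas ANXA4 and ANXA11 were higher at 24 and 48 h (0.60 and 0.63 at 48 h). No other annexin was called with all libraries, and without 12 h replicate 1 the count at 48 h was 3 higher and 3 lower. With 10 annexins tested, 2 higher and 2 lower at 48 h is near the shares of all genes (16% and 16.3%), as is 3 and 3 without that library (24.5% and 26%).

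**Figure D4:**
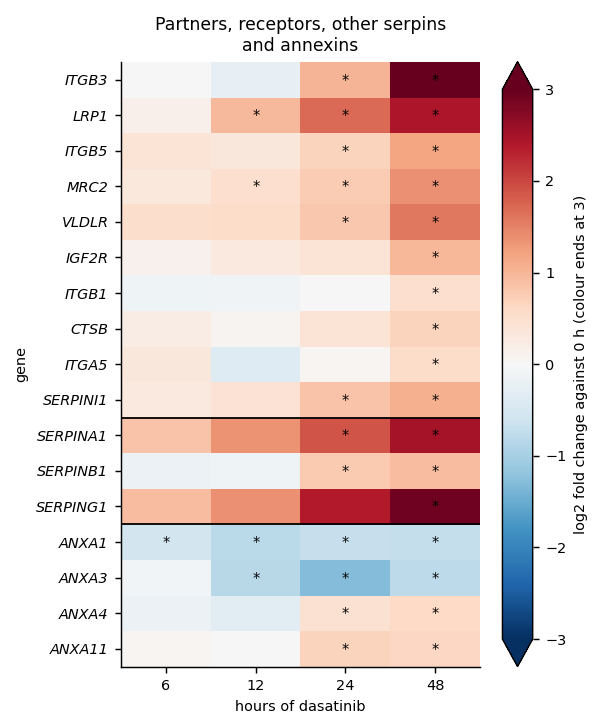
Log2 fold change against 0 h (color, ending at 3 in both directions) of named plasminogen-system genes, other serpins and annexins (rows, separated by lines) at 6, 12, 24 and 48 h (columns); an asterisk marks an adjusted p below 0.05. ANXA1 is lower at all 4 times while LRP1 rises to 2.43 and ITGB3 lies at the end of the scale at 48 h. SERPIND1 is left out because its 0 h libraries held 0 and 2 counts.

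The genes whose log2 CPM was most like that of each member were found by Pearson correlation over the 10 libraries, which share time and the 12 h replicate 1 library. For PLAT these were TMEM45A (0.979), ANGPTL4 (0.976) and ZFAND3 (0.975), and for PLAUR TMEM255B (0.987), NHERF2 (0.976) and SLC41A3 (0.972). For PLAU they included PHF23 (0.977) and S100A10 (0.974), and for ANXA2 they were LINC01116 (0.987), EIF1 (0.986) and SLC25A38 (0.985). For SERPINE2 they were SERPINF1 (0.924), ING2 (0.924) and EPDR1 (0.922), and for SERPINB7 MEN1 (0.971), TUBB4B (0.968) and DCPS (0.967). SERPINB7 had 0 to 34 counts per library, so its correlations rest on few counts. Over the 9 libraries without 12 h replicate 1, of the first 3 genes for each member only TMEM255B for PLAUR and EPDR1 for SERPINE2 were among the first 3 again. PLAT was then most like IFITM1 (0.989), IFITM3 (0.983) and GRINA (0.978).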

How the data were processed

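RNA of MDA-MB-231 cells was sequenced at 5 times with 2 libraries each. Per the submitters' processing notes, FastQC, MultiQC, Trim Galore, STAR 2.5.2b and featureCounts were used with hg38; the annotation and the strand setting are not given in the sources used here, so reads of overlapping antisense genes cannot be told apart. The authors deposited raw counts per gene and, separately, TPM, which they normalized for length and depth and which allow levels of different genes to be compared. Groups were taken from the sample labels.

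Counts were tested with edgeR 4.0.16 (filterByExpr, TMM, robust quasi-likelihood fit over all 10 libraries, Benjamini-Hochberg adjustment over the 15727 genes tested, threshold 0.05), in R 4.3.3. CPM used TMM-scaled library sizes. The script was tested on simulated data. Alternatives were no filter, DESeq2-type size factors, DESeq2 1.42.0, edgeR on the groups compared alone, limma 3.58.1 on log2(TPM + 1) and log2(TPM + 0.1), the replicate number as a block, and each library left out. Between-time tests used the same fit.

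The named genes were all 7 members; of the plasminogen system, other serpins and annexins, up to 10, 8 and 4 genes by smallest adjusted p at 48 h, plus any called at 6 h; and 3 genes per member by correlation among genes with average log2 CPM of at least 2. The members and lists were chosen with earlier results of these data known. The labels call the replicates biological and do not say how the cultures were separated, so p-values measure the spread between these 2 libraries a group. Some genes of the lists, markers and correlations are not reported here, and the serpin list and its counts were formed without them after the data were examined.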

Additional observations from a re-analysis of the deposited data

Results flagged for a closer look

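PLAT differed between times of dasatinib by the direct edgeR test, with drug exposure and time in culture not separable: by 1.05 on the log2 scale between 24 and 12 h, by 0.89 between 48 and 24 h, and by 1.33 between 48 and 6 h. SERPINB7 differed between 48 and 6 h, with a fitted log2 difference of -7.55 that depends on the prior count because both 48 h libraries had 0 counts.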

How the results depend on the processing

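Over 184 values of members under the other settings, 165 kept direction and side of the threshold, 16 passed it newly, 3 lost it and 0 changed direction. Over 240 values with a library left out these counts were 205, 22, 4 and 9. With no filter on low counts, members higher at 6 h numbered 1, lower at 12 h 2, lower at 24 h 1, higher and lower at 48 h 2 each, differing between 6 and 12 h 4 and between 12 and 24 h 2. With DESeq2, 2 were lower at 12 h, 2 higher at 48 h and 2 differed between 6 and 12 h. With edgeR on the 2 groups alone, 3 were higher and 1 lower at 6 h, 0 lower at 12 h, 1 higher and 2 lower at 24 h, 2 higher and 2 lower at 48 h, and 0, 2 and 5 differed between 12 and 24, 24 and 48, and 6 and 48 h. With limma on log2(TPM + 1) or log2(TPM + 0.1), where SERPINB7 was filtered out, 0 were lower at 48 h and 1 differed between 6 and 48 h; with log2(TPM + 1) and no filter, 0 were lower at 12 h or 48 h, 0 differed between 24 and 48 h and 1 between 6 and 48 h. The number of all genes called moved too: at 6 h it was 430 with the main settings, 910 with no filter, 912 with DESeq2, 2966 with the 2 groups alone and 265 with limma on log2(TPM + 1), and at 12 h it was 1124, 2336, 1921, 0 and 791. The fit to the 2 groups alone called 6485 genes for 24 h against 0 h, where the main settings called 3143. For 48 h against 0 h these totals were 8158 and 5077. Between times they were 0 and 1192 from 12 to 24 h, and 3805 and 500 from 24 to 48 h. From 6 to 48 h they were 8416 and 5221. Member counts in this fit moved in the same direction as these totals, so a larger count is not read as a stronger result. Apart from the filters and the smaller fits, the cause of these shifts was not tested.

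With 1 library left out, the 6 h comparison had 0 to 3 members higher and 0 to 1 lower, the 12 h comparison 0 to 1 higher and 0 to 5 lower, the 24 h comparison 0 to 1 higher and 0 to 2 lower, and the 48 h comparison 1 to 2 higher and 0 to 2 lower. Between times the count of members called also moved with the library left out, as did the number of all genes called. Over the same fits the genes called numbered 59 to 3205 (6 h), 169 to 7559 (12 h), 1216 to 6665 (24 h) and 2913 to 8364 (48 h). The highest counts came from leaving out one or the other 12 h library. Log2 fold changes that changed direction, with their range over left-out libraries, were SERPINB7 at 6 h (-1.18 to 0.27; 0.18 without 0 h replicate 1, 0.27 without 6 h replicate 1), PLAU at 12 h (-0.95 to 0.15, the latter without 12 h replicate 1), PLAUR at 12 h (-0.94 to 0.18, likewise), SERPINE2 at 12 h (-0.35 without 12 h replicate 2, to 0.34), PLAU at 24 h (-0.066 without 0 h replicate 1, -0.036 without 24 h replicate 2, to 0.19), PLAT at 24 h (-0.039 without 24 h replicate 2, to 0.23) and SERPINE2 at 48 h (-0.030 without 48 h replicate 2, to 0.062).

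With the replicate number as a block, PLAT at 48 h was called as before, the log2 fold change of PLAT at 12 h was -0.96 (adjusted p = 0.00622), and no count of members moved. Deviations of same-numbered libraries correlated at -0.04 to 0.10 between groups. Low correlations over all genes cannot settle whether replicate numbers pair the samples. SERPINB2 and SERPINB7 are limited by depth.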
